A study of Homo sapiens and Mus musculus with 13 samples.

Results

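The genes described here are 10 genes of early B lymphoid development: Cd79a, Cd79b, Igll1, Vpreb1, Ebf1, Pax5, Rag1, Rag2, Il7r and Dntt. They were chosen by symbol from the deposited mouse gene tables, where all 10 were found, with 11 identifiers among 37991 because Ebf1 is listed under 2. Expression was measured by RNA sequencing in mouse haematopoietic progenitors immortalized by HOXB8 and kept in medium with 1% stem cell factor conditioned medium and 1 µM beta-estradiol. NPM1c is the leukaemia-associated mutant of nucleophosmin that accumulates in the cytoplasm. The knock-in group holds 3 single-cell clones, titled 12, 18 and 4, made by CRISPR/Cas9 insertion of NPM1c fused to GFP per the series design. The control group holds 2 libraries of the parental line, labelled wild-type. All 5 libraries share the HOXB8 immortalization, and the labels record no drug treatment. No clone without the knock-in is labelled, so the effects of the knock-in and of growing a line from a single cell cannot be told apart. The labels give no mouse strain or age, and the human libraries of the series were not analysed here.

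B cells arise from lymphoid progenitors that switch on a small set of genes before they carry any antibody. The transcription factor Ebf1 starts the programme and Pax5 then fixes it, while the interleukin-7 receptor supplies growth signals. The recombinase Rag1 with Rag2 cuts immunoglobulin genes, and Dntt (terminal transferase) adds untemplated nucleotides at the joints. Igll1 (lambda 5) and Vpreb1 form the surrogate light chain of the pre-B cell receptor, which signals through the Cd79a and Cd79b chains. Some of these genes are also transcribed at low level in progenitors that still make myeloid cells, which is called lymphoid priming.

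Values are normalized reads, which are the reads of a gene divided by a scaling factor of its library. Depth differed widely. Parental replicate 2 held 99557475 reads, against 9728260 in parental replicate 1 and 7358340 to 12235174 in the clones, so a scarce transcript was measured most precisely in parental replicate 2. Npm1, into which the mutant was inserted, gave 15140.8, 14144 and 14305 normalized reads in clones 12, 18 and 4 and 25695 and 25714 in the parental libraries (adjusted p = 0.000533, limma), and the table does not separate mutant from normal transcripts. The progenitor markers Kit and Cd34 and the general white blood cell gene Ptprc were abundant in all 5 libraries, with lowest values of 5263, 14738.5 and 7217. Several markers of mature lymphocytes were not detected. Cd3e, Cd3g, Ms4a1 and Cd22 had no read in any library. Other lymphocyte genes were present, among them Thy1 at 208 to 462 and Cd72 at 3548 to 5175 normalized reads.

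Of the 9 identifiers abundant enough to test, 4 were lower in the clones by limma (adjusted p under 0.05), none was higher, and 5 did not pass. Among all 13132 genes tested, 8.49% were lower by the same rule, 7.51% were higher, and 16.0% were called in either direction. The 4 were Cd79b, Dntt, Igll1 and Ebf1, and edgeR (9.35% of its genes lower) and DESeq2 (9.44%) called the same 4. In 7 of the 9 every clone lay below both parental libraries, as was the case for 25.8% of all genes tested, and in none did every clone lie above them. The minimum for testing was a mean of 10 normalized reads over the 5 libraries. Cd79b met it only through the parental libraries, so its call and the count that holds it are partly set by that minimum. The median log2 fold change of the 9 was -0.66, beside 0.01 for all genes tested. Without the deep parental replicate 2, which leaves 1 parental library, fewer of these genes and fewer of all genes were called. The log2 fold changes there were -5.51 for Cd79b, -1.52 for Dntt, -1.12 for Igll1 and -0.63 for Ebf1. These are bulk libraries, in which fewer cells of a type and less RNA per cell cannot be told apart.

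**Figure D1:**
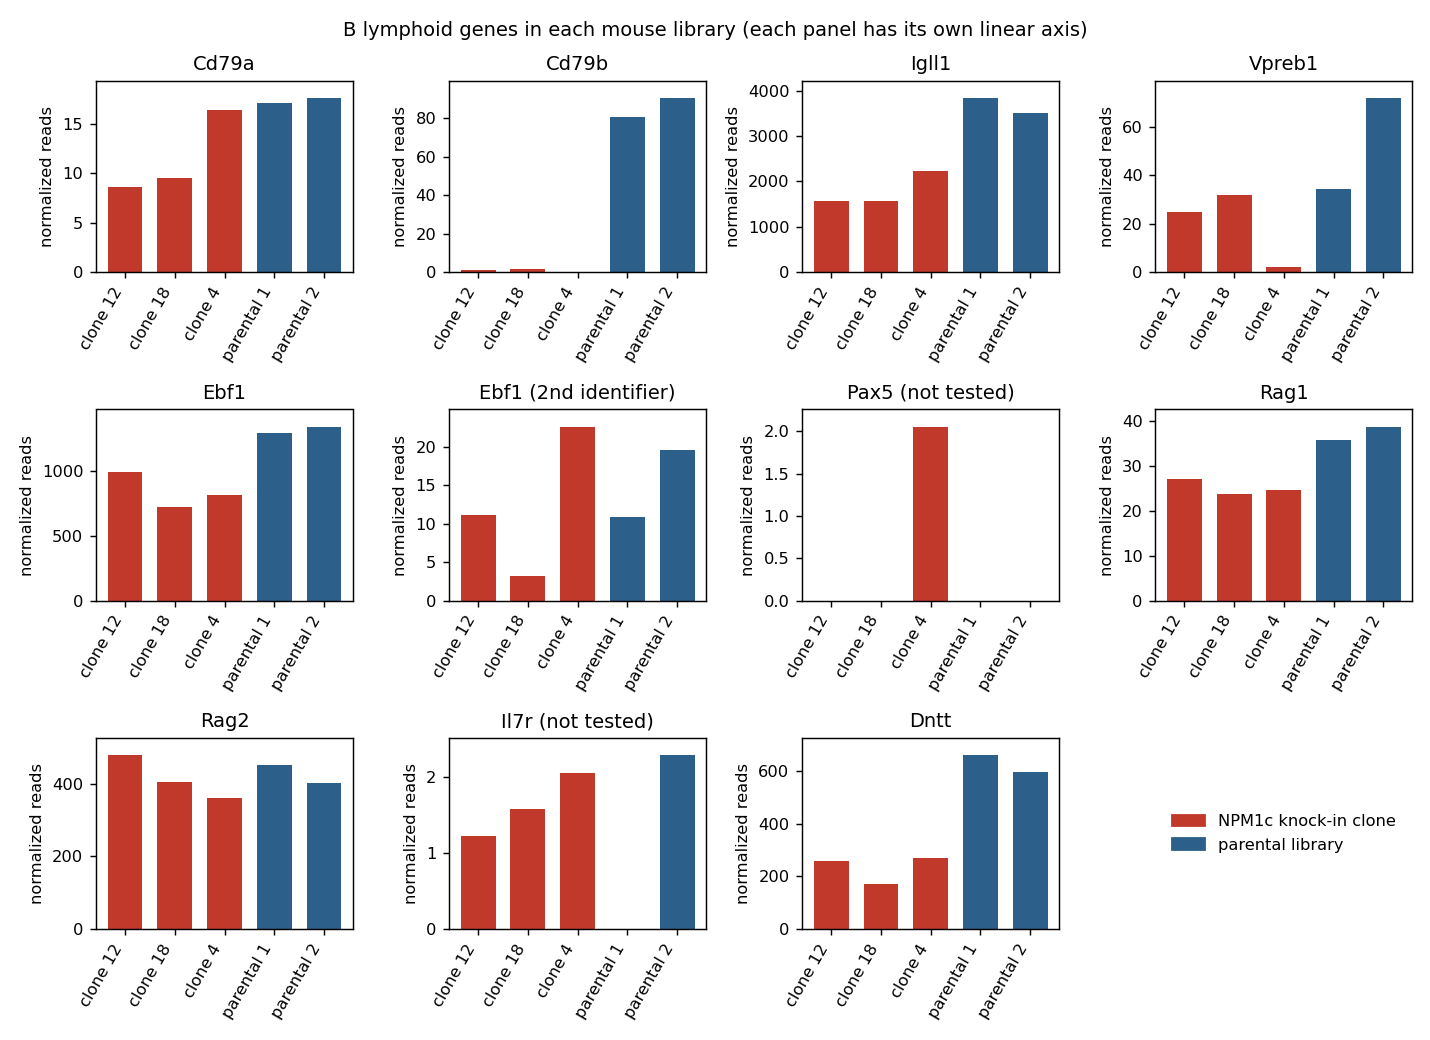
Normalized reads of the 11 identifiers in each mouse library, with the 3 knock-in clones in red and the 2 parental libraries in blue. Each panel has its own linear axis from 0. Igll1, Dntt, Ebf1 and Cd79b stand lower in every clone than in either parental library, while Rag2 overlaps between the groups.

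Cd79b, the Ig-beta signalling chain, was the member with the largest fall. It stood at 80.8 and 90.2 normalized reads in parental replicates 1 and 2 (52 and 591 reads), and at 1.23, 1.59 and 0 in clones 12, 18 and 4 (1, 1 and 0 reads). The clones were all at or next to zero, and the 2 parental libraries lay close together. With 2 reads in the clones and 643 in the parental libraries, the parental level was 86.3 times the clone level, with a 95% counting interval of 23.8 to 714. Leaving out any 1 library moved this ratio between 64.5 and 116. On the log2(value + 1) scale the change was -5.59 (SE 0.668, adjusted p = 0.00208, limma), the 35th lowest of 13132, although this figure depends on the added constant and was -6.14 with 0.5 and -3.94 with 5. The call was lost without parental replicate 2 (adjusted p = 0.0573, limma), where the lone parental library is assumed to vary like the clones.

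Cd79a, the Ig-alpha chain that pairs with Cd79b, was scarce in every library. Its values were 8.62, 9.51 and 16.4 in clones 12, 18 and 4 and 17.1 and 17.6 in the parental libraries, from 7, 6, 8, 11 and 115 reads. Clone 4 was next to the parental level and the other 2 clones were lower. The difference did not pass (log2 fold change -0.60, 95% interval -1.71 to 0.51, adjusted p = 0.425, limma). By reads, the parental level was 1.61 times that of the clones, with a 95% counting interval of 1.01 to 2.69, which lies wholly below the interval of Cd79b. Counting intervals leave out the spread between clones, and the difference between the fold changes of Cd79a and Cd79b was not tested.

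**Figure D2:**
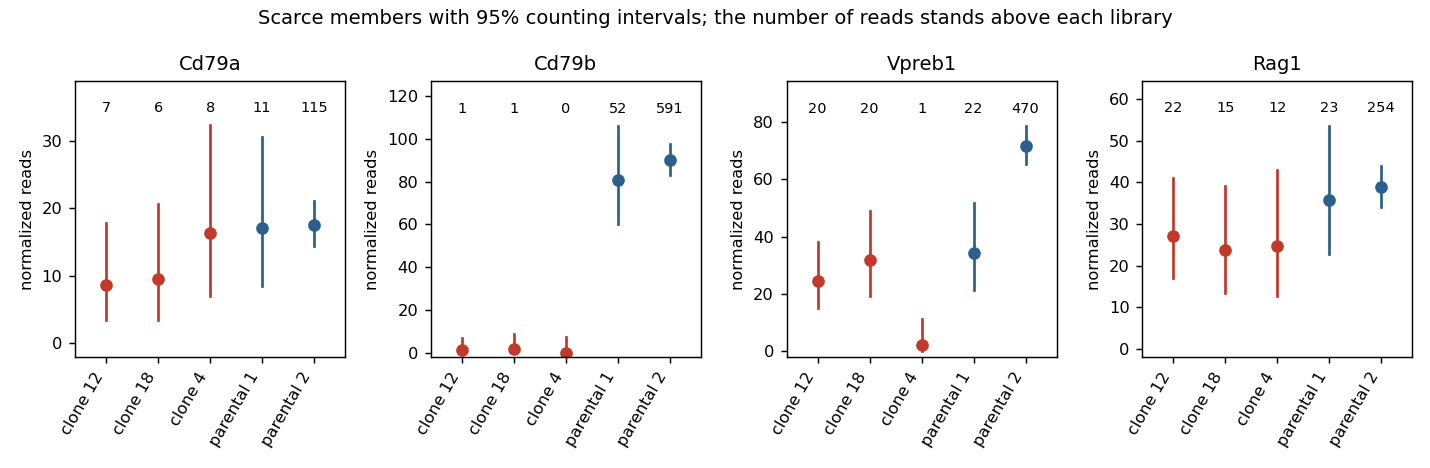
Normalized reads of Cd79a, Cd79b, Vpreb1 and Rag1 in each library, with 95% counting intervals as vertical lines and the number of reads above each library. For Cd79b the clone intervals end at 8.83 or lower and the parental intervals start at 60.3 or higher, whereas for Cd79a and Rag1 the intervals of clones and parental libraries overlap.

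Igll1, the lambda 5 chain, supplied most of the reads of these genes (57.8% in the parental libraries and 52.3% in the clones). Its level was 1578, 1571 and 2228 in clones 12, 18 and 4, against 3835 and 3502 in the parental libraries. Every clone was well below both, and clone 4 was the highest of the clones. The group means were 1792 ± 377 (SD, n = 3) and 3668 ± 235 (SD, n = 2), which is -1.05 on the log2(value + 1) scale (SE 0.164, adjusted p = 0.00701, limma). Igll1 was called in all 14 alternatives, with log2 fold changes from -1.22 to -0.97 and adjusted p up to 0.0399.

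Vpreb1, the partner of Igll1 in the surrogate light chain, varied widely. It was at 24.6 and 31.7 in clones 12 and 18 (20 reads each), at 2.05 in clone 4 (1 read), and at 34.2 and 71.8 in the parental libraries (22 and 470 reads). Clone 4, the highest clone for Igll1, was the lowest for Vpreb1, and the parental libraries themselves differed by 1.05 on the log2 scale, where the median difference between them over all tested genes was 0.18. The groups did not overlap, but the difference did not pass the test (log2 fold change -1.89, SE 1.1, adjusted p = 0.301, limma). Without clone 4 the log2 fold change was -0.81 (adjusted p = 0.215). Vpreb2, a near-identical copy with which reads may be shared, was at 2.46, 3.17 and 0 in clones 12, 18 and 4 and at 0 and 7.79 in the parental libraries.

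Ebf1, the factor that starts the B cell programme, was at 992, 719.6 and 812 in clones 12, 18 and 4 and at 1291 and 1337 in the parental libraries under its main identifier. The clones were all lower, with clone 12 nearest to the parental level. This amounted to 841 ± 139 (SD, n = 3) against 1314 ± 32.2 (SD, n = 2), which is -0.66 on the log2 scale (SE 0.150, adjusted p = 0.0240, limma). The call was close to the threshold. It was lost without clone 18 (0.0548), without parental replicate 1 (0.0644) and without parental replicate 2 (0.102, all limma adjusted p), while the log2 fold change stayed between -0.78 and -0.55. The second Ebf1 identifier had 3.17 to 22.6 normalized reads in the clones and 10.9 and 19.5 in the parental libraries, which overlapped (adjusted p = 0.654, limma). No source used here says how the authors' counting divided reads between these 2 identifiers.

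Pax5, which commits cells to the B lineage downstream of Ebf1, was not detected in the parental cells. It had 0 of 109285735 parental reads, which allows a level of up to 0.0275 CPM (3 reads, counting error only), and a single read in clone 4 (2.05 normalized reads). No difference was detectable at this depth. Il7r, the interleukin-7 receptor chain that defines lymphoid progenitors, was likewise close to nothing. It gave 1 read in each clone (1.23, 1.59 and 2.05 normalized reads), 0 in parental replicate 1 and 15 in parental replicate 2 (2.29). The groups overlapped, and neither gene was tested.

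Dntt, the terminal transferase, showed the steepest fall among the abundant members. Its values were 257, 171 and 271 in clones 12, 18 and 4 and 659 and 596 in the parental libraries. All clones were far below both parental libraries, and clone 18 was the lowest. The means were 233 ± 54.0 (SD, n = 3) and 627 ± 44.3 (SD, n = 2), or 2.73-fold lower on the log2(value + 1) scale (log2 fold change -1.45, SE 0.219, adjusted p = 0.00543, limma). Dntt was called in all 14 alternatives, with adjusted p up to 0.0283 and log2 fold changes from -1.57 to -1.24.

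Rag2, the accessory subunit of the recombinase, did not pass in any alternative. It was at 478, 404 and 361 in clones 12, 18 and 4 and at 451 and 403 in the parental libraries, and the groups overlapped. The log2 fold change was -0.05 with a 95% interval of -0.43 to 0.33 (adjusted p = 0.869, limma), and its sign turned without clone 4 (0.04) and without parental replicate 1 (0.03). Rag1, the catalytic subunit, was at 27.1, 23.8 and 24.6 in the clones (22, 15 and 12 reads) and at 35.7 and 38.8 in the parental libraries (23 and 254 reads). Its clones lay below both parental libraries and close to each other. The difference did not pass (log2 fold change -0.55, 95% interval -1.22 to 0.12, adjusted p = 0.239, limma), and by reads the parental level was 1.52 times higher with a 95% counting interval of 1.12 to 2.10.

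**Figure D3:**
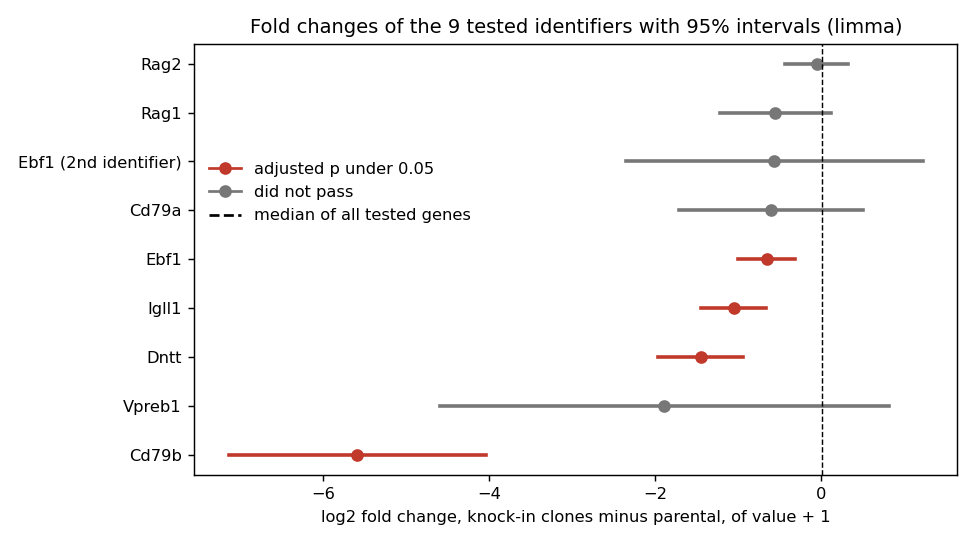
Log2 fold changes of the 9 tested identifiers on the log2(value + 1) scale, knock-in clones minus parental libraries, with 95% intervals from limma. Red marks adjusted p under 0.05, grey marks members that did not pass, and the dashed line is the median of all tested genes. Cd79b lies at -5.59, Dntt, Igll1 and Ebf1 lie between -1.45 and -0.66, and Rag2 lies at -0.05.

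Read together, the 11 identifiers took 224, 197 and 248 CPM, a share of each library's total reads, in clones 12, 18 and 4 and 424 and 399.9 CPM in the parental libraries. The clones were all lower, and Igll1 with Ebf1 supplied most of that sum. The composition of the sum differed as well. Rag2 made up 12.8% of these reads in the clones and 6.66% in the parental libraries, and Cd79b 0.0311% and 1.46%. Between clones the order changed from gene to gene. Clone 4 was the highest for Igll1, Dntt and Cd79a and clone 12 for Ebf1, Rag1 and Rag2. For Dntt, Cd79a, Rag1 and Rag2 the counting interval of the highest clone overlapped that of another clone, so their order is uncertain. The highest clone exceeded the lowest by 1.14-fold for Rag1, 1.32-fold for Rag2, 1.38-fold for Ebf1, 1.42-fold for Igll1 and 1.58-fold for Dntt. From few reads, it did so by 1.9-fold for Cd79a, 7.12-fold for the second Ebf1 identifier and 15.5-fold for Vpreb1. Cd79b had no read in clone 4 and so has no ratio. The median over all tested genes was 1.24-fold, taken on value + 1. The parental libraries differed by less than the median gene in Cd79a, Cd79b, Igll1, Ebf1, Rag1, Rag2 and Dntt (0.04 to 0.16 on the log2 scale against 0.18), and by more in Vpreb1 (1.05) and in the second Ebf1 identifier (0.79).

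Of 28 identifiers in the list of B lineage regulators, 19 were tested, of which 3 were higher, 2 were lower and 14 did not pass, with a median log2 fold change of -0.13. Over all genes tested, 7.51% were higher and 8.49% lower, with a median of 0.01. Mef2c, a factor of lymphoid and myeloid progenitors, had no read in the clones. Its parental values were 411.7 and 531 normalized reads. Setting the clones together at 3 reads makes the gene at least 303-fold lower (176-fold without clone 12; adjusted p = 0.000112, limma). Tcf4, an E protein, was lower at 1976 ± 165 (SD, n = 3) against 2705 ± 147 (SD, n = 2; adjusted p = 0.0257, limma). Ets1, a lymphoid ETS factor, was higher at 88.6, 152 and 75.9 in the clones against 0 and 5.50 (adjusted p = 0.00730, limma), and Sox4 rose from 1574 ± 48.4 to 2119 ± 92.0 under its main identifier (adjusted p = 0.0207, limma). The third higher gene was Myb, a progenitor factor (log2 fold change 0.34, adjusted p = 0.0412, limma), which missed the threshold in 4 of 5 leave-outs of 1 library (0.0543 to 0.202) and also with TMM scaling (0.0528), with no filter (0.0878) and without trend and robust moderation (0.165). Mef2c met the minimum for testing only through the parental libraries and Ets1 only through the clones.

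Other regulators of the list were measured without passing the test. Tcf3, which encodes E2A, was at 7552 to 10255.8 in the clones and 9507 and 10996 in the parental libraries (adjusted p = 0.487, limma). Ikzf1 (Ikaros) was at 10614 to 10733 in the clones and 11364 and 12029.5 in the parental libraries (adjusted p = 0.245, limma). Foxo1, which acts on the Rag genes, was at 20.9, 23.8 and 34.9 in the clones and 49.7 and 45.2 in the parental libraries (adjusted p = 0.120, limma). Of the called regulators named here, Mef2c and Ets1 were called in all alternatives. Tcf4 missed the threshold without clone 12, clone 18, parental replicate 1 or parental replicate 2 (0.0603, 0.0594, 0.0531 and 0.134), and Sox4 without clone 12, parental replicate 1 or parental replicate 2 (0.0926, 0.0522 and 0.103, limma adjusted p).

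Of 25 identifiers of the pre-B and B cell receptor list, 11 were tested, with 1 higher, 3 lower and 7 not passing, and a median log2 fold change of -0.23. The shares over all genes tested were 7.51% higher and 8.49% lower. Ighm, the mu heavy chain that the surrogate light chain binds, was at 3.69, 4.76 and 0 in clones 12, 18 and 4 and at 45.1 and 50.4 in the parental libraries (log2 fold change -4.02, SE 0.845, adjusted p = 0.0180, limma). Like Cd79b, it met the minimum for testing only through the parental libraries. Cd72, an inhibitory coreceptor, was lower at 3694 ± 129 (SD, n = 3) against 4980 ± 276 (SD, n = 2), as was Pik3ap1, an adaptor that links the receptor to PI3 kinase, at 840.1 ± 155 against 1426 ± 103 (adjusted p = 0.0144 and 0.0186, limma). Cd37, a tetraspanin of many white blood cells, rose from 3948 ± 235 to 6733 ± 658 (adjusted p = 0.00319, limma).

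The pre-B cell adaptor Blnk was at 20.5 to 24.6 in the clones and 24.9 and 37.4 in the parental libraries and did not pass (adjusted p = 0.455, limma). Ighm did not pass without parental replicate 1 or 2 (0.107 and 0.140), Cd72 without clone 12 or parental replicate 2 (0.0548 and 0.0932), and Pik3ap1 without clone 12, parental replicate 1 or parental replicate 2 (0.0682, 0.0763 and 0.0597, limma adjusted p). Cd37 was called in every alternative.

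In the list of lymphoid progenitor and interleukin-7 signalling genes, 19 of 24 were tested, with 1 higher, 2 lower and 16 not passing, and a median log2 fold change of 0.15. Calls took up 16.0% of all genes tested, with 7.51% higher and 8.49% lower, so the count of this list is near that share. Cd27, a TNF receptor of lymphoid-primed progenitors, was at 3.69, 1.59 and 2.05 in clones 12, 18 and 4 and at 253 and 292 in the parental libraries (log2 fold change -6.36, SE 0.419, adjusted p = 0.000222, limma). Flt3, the cytokine receptor that marks the same progenitors, was lower at 3812 ± 348 (SD, n = 3) against 5483 ± 53.2 (SD, n = 2; adjusted p = 0.0117, limma). Crlf2, the receptor of thymic stromal lymphopoietin, which pairs with Il7r, was higher at 859 ± 144 against 494 ± 28.2 (adjusted p = 0.0187, limma). Its partner Il7r gave the few reads described with Pax5. Cd27 met the minimum for testing only through the parental libraries. Ly6d, a marker of B-biased lymphoid progenitors, had no read in any library. Cd27 was called in every alternative, Flt3 was lost without clone 12 or parental replicate 2 (0.0543 and 0.0635), and Crlf2 without clone 12, clone 18 or parental replicate 2 (0.0803, 0.0554 and 0.0855, limma adjusted p).

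All 15 found genes of the list of enzymes and cofactors that join cut immunoglobulin genes were tested, with 1 higher, 2 lower and 12 not passing, and a median log2 fold change of -0.07. Over all genes tested 16.0% were called. Hmgb1, a cofactor of Rag cutting with many other roles, fell from 20182 ± 1142 (SD, n = 2) to 14484 ± 574 (SD, n = 3; adjusted p = 0.00599, limma), and its call was lost without trend and robust moderation (0.0616). Xrcc6 (Ku70) fell from 1421 ± 79.7 to 1082 ± 44.2 (adjusted p = 0.0413, limma), and Dnttip1, a terminal transferase partner, rose from 335 ± 32.6 to 523 ± 14.4 (adjusted p = 0.0193, limma). Polm, the polymerase most similar to Dntt, was at 39.0 to 48.0 in the clones and 68.7 and 80.8 in the parental libraries and did not pass (adjusted p = 0.0625, limma). Xrcc6 was lost without any 1 of the clones 12 and 18 or the parental libraries (0.0694 to 0.182), and Dnttip1 without clone 12, clone 18 or parental replicate 1 (0.0721, 0.0571 and 0.0628, limma adjusted p).

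**Figure D4:**
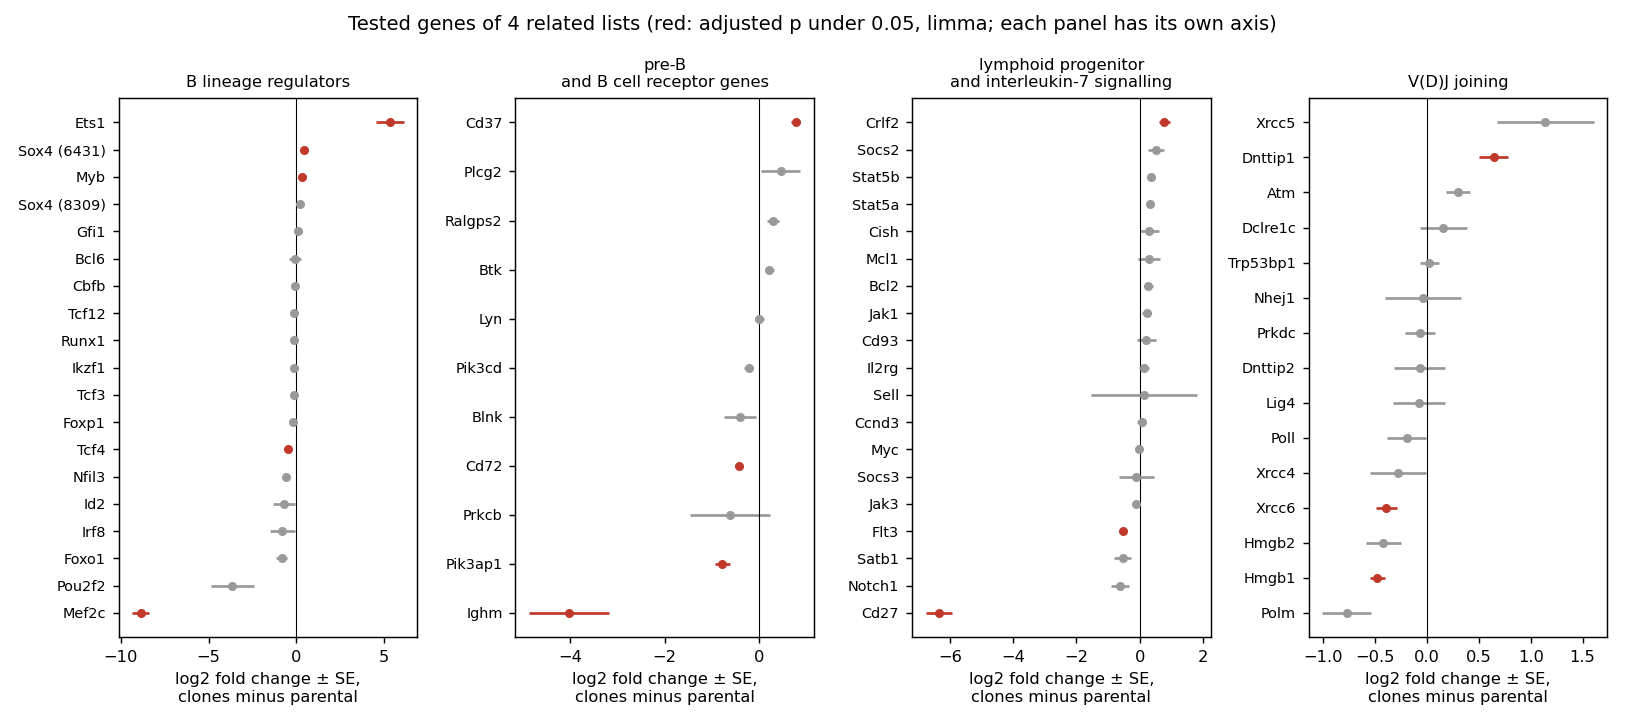
Log2 fold changes (log2(value + 1) scale, knock-in clones minus parental libraries) with their SE for the tested genes of 4 related lists, each on its own axis; red marks adjusted p under 0.05 by limma. Mef2c, Cd27 and Ighm stand far to the left at -8.87, -6.36 and -4.02, and Ets1 stands to the right at 5.32. These values depend on the added constant. In the same order they were -9.87, -6.6, -4.44 and 5.87 with 0.5 added, and -6.56, -5.23, -2.81 and 3.87 with 5 added.

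Markers of other lineages were read beside these values. The 26 T and NK cell markers summed to 740 to 823 normalized reads in the clones and 559 and 679 in the parental libraries, mostly Thy1, Nkg7, Lck and Cd247, and 9 of them had no read in any library. The T cell signalling adaptor Lat (30.8, 12.7 and 55.4 against 3.11 and 6.26) was higher in the clones (adjusted p = 0.0469, limma). It met the minimum only through the clones and missed the threshold without any 1 of clone 12, clone 4 or the parental libraries (0.0801 to 0.169). Plasmacytoid dendritic cell markers, which accompany B lymphoid genes in some progenitors, summed to 3801 to 4229 and to 4567 and 4841, with Siglech at 0 throughout and none of 5 tested identifiers passing. Most of that sum came from Runx2. The 15 identifiers of mature B and plasma cells summed to 7609 to 9027 in the clones and 7473 and 8126 in the parental libraries, mostly Sdc1 and Xbp1, and Cd40, Cd83, H2-Aa and H2-Eb1 had no read. Of these 15, 4 were tested: H2-Ab1 was higher (300.5 ± 90.0 against 54.4 ± 13.2, adjusted p = 0.00168), Prdm1 was lower (2.80 ± 3.24 against 60.5 ± 2.38, adjusted p = 0.0135, limma) and 2 did not pass. Prdm1 met the minimum for testing only through the parental libraries, and its call was lost without parental replicate 1 or 2 (0.0920 and 0.103). The myeloid progenitor markers summed to 81170 to 88740 in the clones and 92950 and 105400 in the parental libraries. The lower clone sums rest on Mpo, the largest gene of the parental sums, whose values are given below. With Mpo left out, the clone sums were not lower. Of 15 tested markers 4 were higher, 3 were lower and 8 did not pass. Among all genes tested, 7.51% were higher and 8.49% lower. Fcgr3, an Fc receptor of myeloid cells, rose from 742 ± 76.2 (SD, n = 2) to 2587 ± 376 (SD, n = 3; adjusted p = 0.000466, limma), and Csf2rb, the shared chain of the GM-CSF and interleukin-3 receptors, from 1510.5 ± 15.8 to 4360.1 ± 702 (adjusted p = 0.000909). Calr rose from 15195 ± 1655 to 22726 ± 1621 (adjusted p = 0.00701, and 0.0593 without trend and robust moderation), and Csf3r, the G-CSF receptor of the granulocyte lineage, fell from 262 ± 23.1 to 71.3 ± 27.2 (adjusted p = 0.00771, limma). The remaining called markers were Ptprc, higher (0.0432), and the granule proteases Elane and Prtn3, lower (0.0240 and 0.0328), each lost in several leave-outs of 1 library. Mpo, a granule enzyme, was at 13844.5, 20009 and 7872 in clones 12, 18 and 4 and at 42873 and 38610 in the parental libraries and did not pass (adjusted p = 0.0629), though it did without clone 18 or clone 4 (0.0292 and 0.0340, limma). The part of these differences in the values of the B lymphoid genes was not tested.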

How the data were processed

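Libraries of the mouse cells were made with the NEBNext Ultra II kit, per the labels' protocols. The authors deposited a signal value per Ensembl gene and library, read counts divided by a DESeq2 size factor, as the labels and the values show. The submitters' processing notes name hg19, mm9, STAR 2.6.1, DESeq2 and RSEM without saying what each did. No source used here gives strand use or the annotation release. Clones are named by sample title; the table headings carry the same numbers in another order (titles 12, 18 and 4 have headings 4, 12 and 18). No label says that the 2 parental libraries are separate cultures, so their spread may be technical.

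Whole reads were recovered from 100% of values above 0 (tolerance 0.01). Values were tested as log2(value + 1) in limma 3.58.1 (R 4.3.3), using its trended and robust options, because the deposited unit is not raw counts. This covered 13132 of 37991 identifiers, those whose mean reached 10, with Benjamini-Hochberg adjustment over them. Adding 1 makes fold changes of scarce genes too small. edgeR 4.0.16 and DESeq2 1.42.0 on recovered reads, other pseudocounts, filters and scalings, and leaving out each library were the alternatives. Counting intervals are exact and cover counting error only. The tests were checked on simulated reads with the same spread for every gene and changes set only in abundant genes. That check therefore does not cover changes of scarce members or the spread between these clones. All members were named, with Npm1, up to 4 called genes of each other list with the smallest p and non-overlapping groups, and the 3 genes nearest in profile to each of the 2 most abundant members. Chosen after their values were seen were Vpreb2, Myb, Tcf3, Ikzf1, Foxo1, Blnk, Ly6d, Polm and the markers outside that rule. Members and lists were chosen with earlier results of these data known. The planned motif search was not run, since no mouse promoter sequences were used here. Some genes of the lists are not reported here.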

Additional observations from a re-analysis of the deposited data

How the results depend on the processing

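No paired analysis was possible because the clones carry clone numbers and the parental libraries replicate numbers, and they share none. Over all genes, 2101 were called; the count was 1271 without trend and robust moderation and 990 to 2115 when 1 library was left out. Without trend and robust moderation the B lineage regulators gave 2 calls in place of 5, the receptor genes 2 in place of 4 and the interleukin-7 list 1 in place of 3. With no filter, where more genes were tested, the regulators gave 3 and the receptor genes 2, and DESeq2 gave 6 for the interleukin-7 list. With 1 library left out, the B lymphoid genes called numbered 2 to 4, the regulators 2 to 4, the receptor genes 1 to 5, the interleukin-7 list 1 to 4 and the joining genes 1 to 3, of 4, 5, 4, 3 and 3. Among the named members and list genes, Ebf1, Tcf4, Pik3ap1, Crlf2, Xrcc6, Myb, Lat, Elane, Ptprc and Prtn3 lost their calls both with no filter and without trend and robust moderation (for Ebf1, adjusted p = 0.0656 and 0.0756, limma). Ighm did so with no filter only (0.0510), and Sox4, Cd72, Flt3, Hmgb1 and Calr without trend and robust moderation only (0.0593 to 0.0745). Lat was also lost with a pseudocount of 5 (0.0537). With 1 library left out, the log2 fold change of the second Ebf1 identifier ran from -1.14 to 0.111 (the highest without clone 18) and that of Rag2 from -0.156 to 0.0449 (the highest without clone 4, and 0.0318 without parental replicate 1), and none of these passed. Polm passed only without trend and robust moderation (0.0404, limma). Other scalings and pseudocounts changed no call among the 9 tested identifiers. Few reads limit Pax5, Il7r, Cd79a, the second Ebf1 identifier, and the clone values of Cd79b and Vpreb1. The same holds for the clone values of Mef2c, Cd27 and Ighm and the parental values of Ets1.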

Other observations

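By the profile of log2(value + 1) over the 5 libraries, each centred on its own mean, the genes nearest to Igll1 were Met, Alg6 and the pseudogene Anp32-ps, with root mean square differences of 0.0867, 0.0897 and 0.0934. Genes here were picked for a profile like that of the member. A shared highest clone and lower values in the clones therefore follow from the choice and are no separate result. Met, a growth factor receptor, had 869, 818 and 1188 normalized reads in clones 12, 18 and 4, below the parental 1773 and 1854. Its highest clone was clone 4, as for Igll1. Nearest to Ebf1 were Gabpb1, Rbpms2 and Sp140 (0.0594, 0.0603 and 0.0631), all highest among the clones in clone 12. Sp140, a nuclear body protein of lymphocytes, had 351, 281 and 285 normalized reads in clones 12, 18 and 4, below the parental 454 and 462.

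Some scarce lymphoid genes lay outside the tested set or did not pass and were picked after their values were seen. Not all scarce genes of the lists were lower in the clones. Cd74, which was not tested, was at 1.23, 1.59 and 6.15 in clones 12, 18 and 4 and at 0 and 0.153 in the parental libraries. These come from 1, 1 and 3 reads in the clones and 0 and 1 in the parental libraries, too few to give a direction. Lsp1, a white blood cell actin-binding protein, had no read in the clones and was at 9.32 and 24.1 in the parental libraries. Pou2f2, a B cell octamer factor, gave 0, 1.59 and 0 for clones 12, 18 and 4 and 4.66 and 51.4 for the parental pair, which differed widely from each other (adjusted p = 0.0874, limma, and 0.00862, DESeq2). It met the minimum for the limma test only through the parental libraries.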
